A study of Mus musculus with 8 samples.

Results

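The haemoglobin transcripts measured in flow-sorted splenic CD4 T cells of Ahr knockout and wild-type mice are described here. All probe sets of the array whose annotated gene symbols include a name starting with Hba- or Hbb- were taken. On this array a transcript region is read by a set of short oligonucleotides, the probe set. There were 15 such probe sets of 22626 tested, and they carried 9 different gene symbols. Of these, 11 named a single gene and 4 named several genes, because the adult haemoglobin genes of a cluster are near-identical copies whose signals cannot be told apart. The set was chosen from haemoglobin levels already seen on these arrays (the KO minus WT differences), so their differences between groups are given as a description, and the counts of calls among them are given beside those of all probe sets with nothing read from them.

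Each array carried RNA pooled from 4 female mice aged 8 to 12 weeks, and there were 2 arrays in each of 4 groups. KO TCDD mice lacked the aryl hydrocarbon receptor gene Ahr and had been injected into the peritoneum with 10 µg/kg TCDD, a potent ligand of that receptor, in corn oil. KO DMSO mice had the same deletion and received the solvent DMSO in corn oil. WT TCDD and WT DMSO mice were C57BL/6 with the intact receptor, given the same injections. All were killed after 24 h, and CD4 T cells were sorted by flow cytometry into cold buffer with serum before RNA isolation. The knockout was present in every cell of the body, and the strain label says only that it was backcrossed to C57BL/6. For WT TCDD replicate 1 the description field speaks of knockout mice, while title, source and strain give wild type, which was followed.

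Haemoglobin is the oxygen carrier of red cells, a tetramer of α-like and β-like chains that each bind a haem group. In mice, Hba-a1 and Hba-a2 encode the adult α chain. The β cluster holds strain-dependent adult genes, Hbb-bs and Hbb-bt in C57BL/6, and Hbb-b1 and Hbb-b2 in strains with the other haplotype. Hba-x, Hbb-y and Hbb-bh1 are the embryonic genes of primitive red cells. The spleen of the mouse filters old red cells and also makes new ones, and reticulocytes, the youngest circulating red cells, still hold globin messenger RNA. T cells are not known as a main source of it.

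The CD4 T cell identity of the samples was checked first. The log2 level of Cd4 averaged 8.16 ± 0.09 over KO and 8.37 ± 0.28 over WT arrays. Another Cd4 probe set, 1427779_a_at, went the other way, 0.05 to 0.23 higher in KO over 16 alternative settings. The level of Cd3e, a chain of the T cell receptor complex, averaged 9.36 ± 0.17 over KO and 9.53 ± 0.09 over WT arrays (SD, n = 4 each). Array medians lay between 6.08 and 6.15, and 2 arrays of a group correlated at 0.967 to 0.992 over all tested probe sets. On the first principal component KO arrays lay between −36.2 and −5.20. WT arrays numbered 1 lay at −2.04 (TCDD) and 9.10 (DMSO), and those numbered 2 stood apart at 40.4 (TCDD) and 49.2 (DMSO). The main differences are therefore also given without the WT arrays numbered 2.

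Adult haemoglobin transcripts were far higher in the knockout samples. Of the 8 adult probe sets, 4 were more than 2 log2 units higher in KO than in WT, and 5 had all 4 KO arrays above all 4 WT arrays. The 7 embryonic probe sets lay under the median probe set in both genotypes, and none of them separated the genotypes. Among 22626 probe sets ordered by the KO minus WT difference, the 4 highest haemoglobin probe sets took ranks 2, 7, 16 and 17.

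The probe set with the widest difference was 1452757_s_at, for the adult α-chain genes Hba-a2 and Hba-a1. It read 11.45 and 11.24 in KO TCDD and 10.65 and 11.69 in KO DMSO, against 9.09 and 7.30 in WT TCDD and 7.86 and 7.47 in WT DMSO (replicates 1 and 2, as in all such pairs below). The lowest KO array lay 1.56 log2 units above the highest WT array. The log2 difference was 3.33, or 10.04-fold, between means of 11.26 ± 0.44 over KO arrays and 7.93 ± 0.81 over WT arrays (SD, n = 4 each).

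A second α-chain probe set, 1428361_x_at, read 12.30 and 11.92 in KO TCDD and 11.49 and 12.50 in KO DMSO, against 10.47 and 8.62 in WT TCDD and 9.35 and 8.96 in WT DMSO. The groups did not overlap, although WT TCDD replicate 1 was 1.02 below the lowest KO array. The log2 difference was 2.70, or 6.51-fold, between means of 12.05 ± 0.45 over KO arrays and 9.35 ± 0.80 over WT arrays (SD, n = 4 each).

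The α-chain probe set 1417714_x_at read 7.37 and 7.06 in KO TCDD and 6.45 and 7.59 in KO DMSO, against 5.37 and 5.03 in WT TCDD and 4.59 and 4.45 in WT DMSO. It was 2.26 log2 units higher in KO, with means of 7.12 ± 0.50 over KO arrays and 4.86 ± 0.42 over WT arrays (SD, n = 4 each). All its WT readings lay under 6.13, the median of the mean levels of all probe sets, and all its KO readings above.

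The β-chain probe set 1417184_s_at names Hbb-bt, Hbb-bs, Hbb-b2 and Hbb-b1 together. It read 11.87 and 11.52 in KO TCDD and 11.42 and 12.37 in KO DMSO, against 9.92 and 9.43 in WT TCDD and 9.52 and 9.39 in WT DMSO. The genotypes did not overlap. The log2 difference of 2.23, or 4.69-fold, compares with a spread of 0.43 (SD) in KO and 0.24 in WT. Transcripts of both chains of the adult tetramer were thus higher in the same arrays.

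The 4 remaining adult probe sets differed less. Hbb-b2 (1427866_x_at), annotated to 1 gene of the β cluster, read between 4.86 and 5.15 in KO and between 4.24 and 4.50 in WT, a log2 difference of 0.70 without overlap. A second Hbb-b2 probe set, 1427865_at, read between 7.21 and 7.57 in KO and between 7.05 and 7.39 in WT, and the genotypes overlapped. The single-gene probe sets for Hba-a2 (1427219_at) and Hba-a1 (1453574_at) differed by 0.14 and 0.08, with overlap, at levels between 5.08 and 5.57. Haemoglobin probe sets of the same annotated genes therefore disagreed in size, and no level or change can be given to one adult gene copy.

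**Figure D1:**
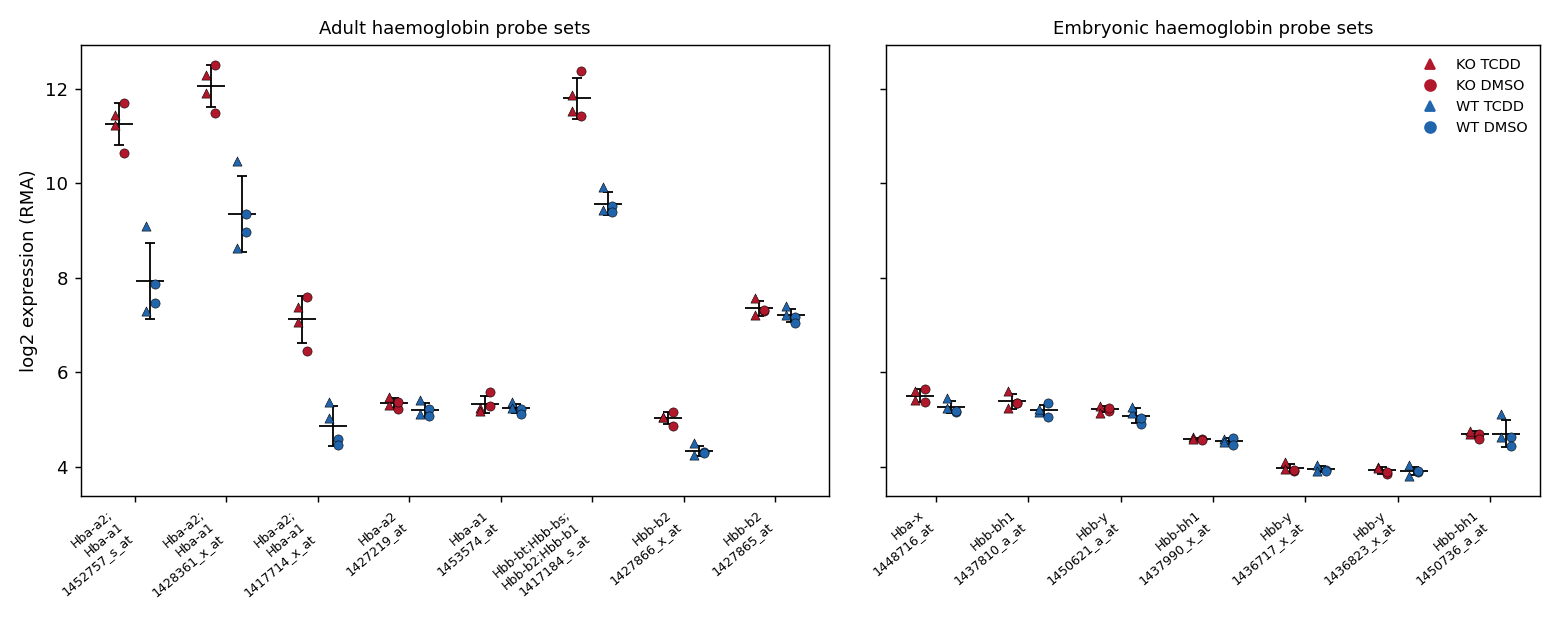
Log2 expression (RMA) of the 8 adult (left) and 7 embryonic (right) haemoglobin probe sets. Points are arrays (triangles TCDD, circles DMSO), bars are mean ± SD over 4 arrays, with KO left of WT. Adult probe sets 1452757_s_at, 1428361_x_at, 1417714_x_at and 1417184_s_at lie 2.23 to 3.33 higher in KO, and the embryonic ones lie between 3.81 and 5.64.

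The embryonic genes gave a level check on the same arrays. Hba-x, the embryonic α-like chain, read between 5.37 and 5.64 in KO and between 5.16 and 5.45 in WT, a difference of 0.24. The 3 probe sets of Hbb-y, an embryonic β-like chain, differed by 0.14, 0.03 and 0.01. Those of Hbb-bh1, another embryonic β-like chain, differed by 0.20, 0.05 and −0.02. Each of these 7 probe sets overlapped between genotypes and lay under the median over probe sets on average.

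Over the whole table, the linear model package limma, with Benjamini-Hochberg (BH) adjustment over all tested probe sets and an adjusted p under 0.05, called 5 of 15 haemoglobin probe sets higher in KO, where 1.59% of all tested probe sets were called higher. It called 0 lower (1.2% of all), and 6 of 15 had an unadjusted p under 0.05, as had 4641 of all probe sets (20.5%). All 4 KO arrays lay above all 4 WT arrays for 5 of 15, against 5.67% of all probe sets, and below them for 0, against 6.67%. Since these levels were known when the probe sets were chosen, nothing is read from these counts. From the TCDD arrays alone and from the DMSO arrays alone the model called 0 of all probe sets, with 2832 and 1545 at an unadjusted p under 0.05. Without both WT arrays numbered 2 it called 0 of the 15, with 6 at an unadjusted p under 0.05. The sizes changed less: the log2 differences of the 4 probe sets were then 2.78, 2.14, 2.14 and 2.08. From the DMSO arrays alone they were 3.51, 2.84, 2.50 and 2.44, and from the TCDD arrays alone 3.15, 2.57, 2.02 and 2.02.

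The promoters of adult genes named by the multi-gene probe sets are set beside those of embryonic genes, although no change can be given to one adult copy. The 250 bases before the annotated start are shown for the adult and embryonic genes with a RefSeq entry in the promoter table (build GRCm38.p6, 6 of 9 symbols matched), 5′ to 3′ on the gene's own strand. Capitals mark matches on either strand to 4 motifs. These are GATAAG, a form of the site of GATA factors, CACCC, the core of the site of Klf1 and related factors, CCAAT, and ATATAA, one form of the TATA box. No base was covered by more than 1 match.
Hba-a1, chr11:32283422-32283671, plus strand: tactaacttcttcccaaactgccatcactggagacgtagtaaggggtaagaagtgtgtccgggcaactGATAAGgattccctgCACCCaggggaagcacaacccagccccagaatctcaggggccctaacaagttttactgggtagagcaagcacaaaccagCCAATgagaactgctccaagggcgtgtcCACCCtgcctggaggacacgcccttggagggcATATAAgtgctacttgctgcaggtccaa
Hbb-bs, chr7:103827929-103828178, minus strand: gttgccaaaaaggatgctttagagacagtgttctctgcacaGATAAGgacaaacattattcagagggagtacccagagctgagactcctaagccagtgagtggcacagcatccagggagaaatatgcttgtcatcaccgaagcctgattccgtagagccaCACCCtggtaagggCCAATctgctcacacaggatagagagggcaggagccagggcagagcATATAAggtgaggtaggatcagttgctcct
Hbb-bt, chr7:103813924-103814173, minus strand: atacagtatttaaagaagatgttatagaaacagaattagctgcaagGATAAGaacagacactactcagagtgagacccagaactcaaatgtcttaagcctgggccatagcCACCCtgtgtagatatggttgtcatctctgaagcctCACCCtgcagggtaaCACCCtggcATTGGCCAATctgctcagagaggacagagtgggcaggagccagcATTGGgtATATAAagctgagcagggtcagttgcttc
Hba-x, chr11:32276350-32276599, plus strand: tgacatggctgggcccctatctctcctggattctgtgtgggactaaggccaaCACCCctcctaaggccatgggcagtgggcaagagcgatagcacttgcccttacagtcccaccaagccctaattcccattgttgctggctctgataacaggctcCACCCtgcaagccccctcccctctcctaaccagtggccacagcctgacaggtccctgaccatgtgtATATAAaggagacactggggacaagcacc
Hbb-y, chr7:103853208-103853457, minus strand: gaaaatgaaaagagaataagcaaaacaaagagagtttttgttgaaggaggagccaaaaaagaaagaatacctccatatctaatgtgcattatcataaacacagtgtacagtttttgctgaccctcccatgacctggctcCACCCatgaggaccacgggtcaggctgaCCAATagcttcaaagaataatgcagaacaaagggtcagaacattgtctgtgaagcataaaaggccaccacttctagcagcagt

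The adult promoters of Hba-a1, Hbb-bs and Hbb-bt held all 4 motifs, and those of Hba-x and Hbb-y held 2 each. GATAAG was found in the 3 adult promoters and in neither embryonic one shown, and it occurs in 6.6% of 27025 promoter windows of this length. Only this exact form was searched. The shorter run GATAA, read on either strand, is also in the Hba-x and Hbb-y windows, so no absence of GATA sites is read from this. CACCC occurs in 51.3% of them, CCAAT in 34.5% and ATATAA in 9.51%. The window of Hba-a2, not printed, shares an unbroken run of 247 bases with that of Hba-a1 and also held all 4. The longest run shared by Hbb-bs and Hbb-bt was 14 bases. These are matches of letters only.

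The 5 adult probe sets that separated the genotypes shared their highest array in each genotype. In KO, DMSO replicate 2 was the highest and DMSO replicate 1 the lowest for 5 of 5. Over all tested probe sets, KO DMSO replicate 2 was the highest KO array for 29.6%. In WT, TCDD replicate 1 was the highest for 5 of 5, against 39.6% of all tested probe sets, and the lowest was TCDD replicate 2 for 3 and DMSO replicate 2 for 2. The 5 probe sets read near-identical genes and are not independent readings, so nothing is read from these counts. Over all 15 haemoglobin probe sets, KO DMSO replicate 2 was the highest KO array for 7 and KO DMSO replicate 1 the lowest for 9. WT TCDD replicate 1 was the highest WT array for 10. A haemoglobin profile was made as the mean log2 level of the 4 adult probe sets with a mean above the median of all probe sets (1452757_s_at, 1428361_x_at, 1417184_s_at and the flat 1427865_at). It was 10.71 and 10.56 in KO TCDD and 10.22 and 10.97 in KO DMSO, against 9.22 and 8.14 in WT TCDD and 8.47 and 8.22 in WT DMSO. The KO minus WT difference of the profile was 2.10, with means of 10.61 ± 0.31 over KO arrays and 8.51 ± 0.49 over WT arrays (SD, n = 4 each). Without the WT arrays numbered 2 it was 1.77. The KO arrays followed the inverse order of the first principal component, on which DMSO replicate 2 lay lowest (−36.2) and DMSO replicate 1 highest (−5.20). That component was computed over all tested probe sets, haemoglobin included, so nothing is read from this order of 4 arrays.

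**Figure D2:**
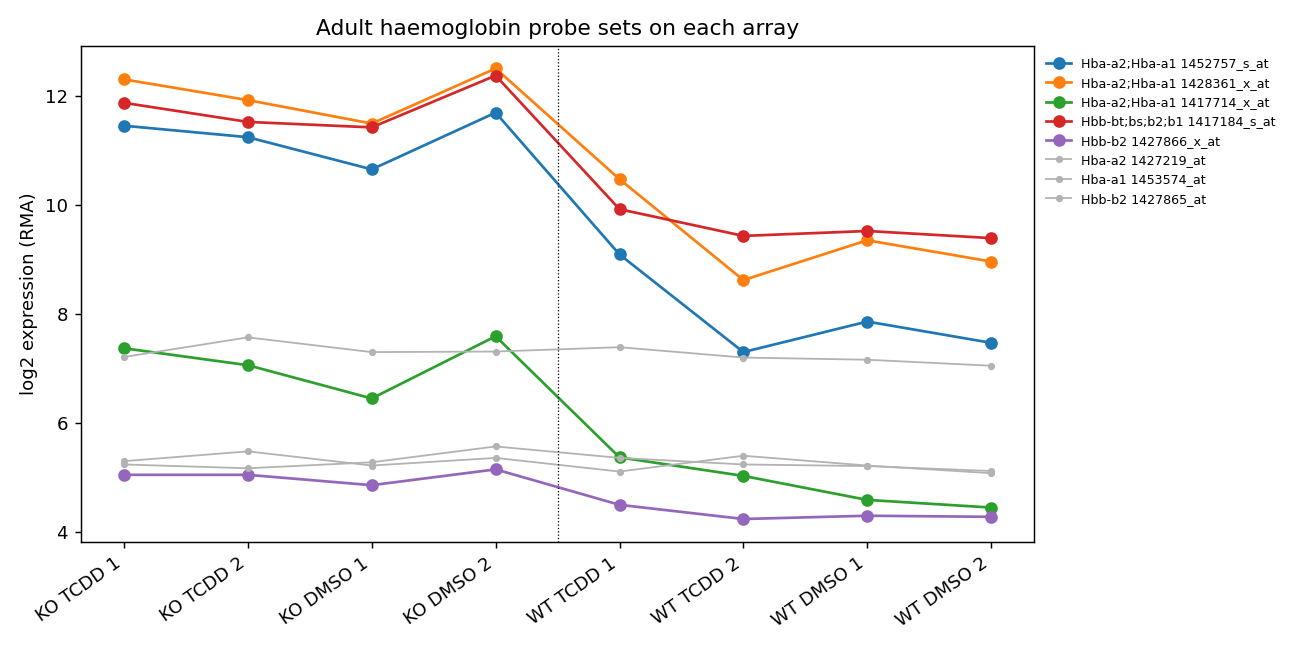
Log2 expression (RMA) of the 8 adult haemoglobin probe sets on each of the 8 arrays, KO left of the dotted line and WT right of it. Coloured lines are the 5 probe sets without overlap between genotypes, which all have KO DMSO 2 as the highest and KO DMSO 1 as the lowest KO array. Grey lines are the 3 that overlap.

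A measure of RNA shortening was highest on the WT array with the highest profile. The 3′ minus 5′ log2 signal of the actin controls, which grows as RNA shortens, was 4.56 and 3.30 in WT TCDD and 3.70 and 2.90 in WT DMSO (replicates 1 and 2). In KO it was 3.73 and 3.82 with TCDD and 3.48 and 3.60 with DMSO. The same measure of the Gapdh controls was also highest on WT TCDD replicate 1 (5.34). Both measures were lowest on the WT arrays numbered 2, where that of Gapdh was 4.35 (TCDD) and 3.71 (DMSO). WT DMSO replicate 1, whose actin value of 3.70 lay inside the KO range, had a profile of 8.47, below every KO array. WT TCDD replicate 1, with a higher actin value than any KO array, had 9.22. The part of RNA integrity in the haemoglobin difference was not tested.

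The haemoglobin profile did not shift with TCDD beyond the spread between arrays, and the difference varied in size and sign among single adult probe sets. In KO the profile was 0.04 higher with TCDD than with DMSO, against a spread between arrays of one group of 0.38 (pooled SD, n = 2 each). In WT it was 0.33 higher, against a spread of 0.55, but leaving out WT TCDD replicate 1 gave −0.21 and leaving out WT TCDD replicate 2 gave 0.87. In KO, leaving out DMSO replicate 1 gave −0.33 and leaving out DMSO replicate 2 gave 0.42. For the β-chain probe set 1417184_s_at the TCDD minus DMSO difference was −0.20 in KO and 0.22 in WT. For the 3 multi-gene α-chain probe sets it was 0.18, 0.12 and 0.20 in KO and 0.53, 0.39 and 0.68 in WT. For the dim Hba-a2 probe set 1427219_at it was 0.10 in KO and 0.11 in WT. For the dim Hba-a1 probe set 1453574_at it was −0.22 in KO, with both TCDD arrays below both DMSO arrays, and 0.14 in WT.

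Of the 5 α-chain probe sets, 2 had both WT TCDD arrays above both WT DMSO arrays. They were 1417714_x_at, with 5.37 and 5.03 in WT TCDD against 4.59 and 4.45 in WT DMSO, and 1453574_at, with 5.36 and 5.24 in WT TCDD against 5.21 and 5.12 in WT DMSO. The β-chain probe set 1427865_at did so too. Over the 15 probe sets, both TCDD arrays lay above both DMSO arrays for 2 in KO (20.5% of all probe sets) and for 6 in WT (18.9% of all). They lay below for 1 in KO (7.14% of all) and 0 in WT (10.8% of all). Limma called 0 of 15 for TCDD in KO, in WT and for the difference of these effects, where 0% of all probe sets were called each time. None of the 15 had an unadjusted p under 0.05, while 383, 631 and 628 of all probe sets had one.

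The lists of other red cell transcripts did not, as sets, differ on the scale of haemoglobin. Of 100 probe sets for 60 genes in 4 red cell lists, limma called 2 higher and 0 lower in KO at a BH adjusted p under 0.05, and 2.79% of all probe sets were called. Of the 100, 26 had an unadjusted p under 0.05 (20.5% of all). The median KO minus WT difference of these 100 was 0.02, against −0.01 over all tested probe sets (−0.005 before rounding). No list had a median beyond 0.10. Some of these probe sets were dim, such as Epb42 (1417337_at, mean of 3.80 over all arrays) and Rhag (4.10). Others were bright in both genotypes, such as Fth1 (1448771_a_at, 11.30) and Mkrn1 (1434853_x_at, 9.86). A median over such a mixed set cannot show whether red cell RNA rose with haemoglobin. Ahsp, the chaperone of free α chains, had no single-gene probe set here.

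The red cell membrane list holds the anion exchanger and proteins of the membrane skeleton, among others. Of its 24 probe sets for 16 genes, limma called 0 (2.79% of all probe sets), with 4 at an unadjusted p under 0.05 (20.5% of all). Their median difference was −0.01. The mean level of the list ran from 5.49 to 5.77 over KO arrays and from 5.53 to 5.74 over WT arrays. Slc4a1, the anion exchanger band 3, read 6.02 and 6.36 in KO TCDD and 5.71 and 6.53 in KO DMSO, against 5.75 and 5.45 in WT TCDD and 5.52 and 5.37 in WT DMSO (1416464_at). Only KO DMSO replicate 1 lay inside the WT range. The difference of 0.63 (SE 0.18) did not pass (limma, BH adjusted p = 0.092). Without both WT arrays numbered 2 it was 0.52 (limma, BH adjusted p = 0.375). It passed only without KO DMSO replicate 1 (0.78; limma, BH adjusted p = 0.042), and in the other 15 of 16 alternatives it did not. The other 2 probe sets of Slc4a1 differed by 0.16 and 0.14. Epb42, which anchors the membrane skeleton, differed by 0.15 and 0.01.

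The list of haem synthesis and iron supply had 9 of 31 probe sets at an unadjusted p under 0.05 (20.5% of all probe sets) and a median of −0.02. Limma called 0 lower (1.2% of all) and 1 higher (1.59% of all). That 1 was Alad, the enzyme that joins aminolaevulinic acid molecules in the second step of the haem pathway. It read 6.83 and 6.68 in KO TCDD and 6.54 and 6.47 in KO DMSO, against 5.75 and 5.84 in WT TCDD and 5.93 and 5.64 in WT DMSO. Every KO array was above every WT array, and it rose by 0.84 (SE 0.10; limma, BH adjusted p = 0.00976). Without both WT arrays numbered 2 it did not pass (difference 0.79; limma, BH adjusted p = 0.0896). The erythroid form of the first enzyme, Alas2, had means of 6.41 ± 0.21 over KO and 6.01 ± 0.24 over WT arrays (SD, n = 4 each). The difference of 0.40 did not pass (limma, BH adjusted p = 0.163). Without both WT arrays numbered 2 it was 0.22 (limma, BH adjusted p = 0.591). Tfrc, the transferrin receptor, is also used by activated T cells, and its brightest probe set read 8.14 ± 0.30 in KO and 8.55 ± 0.26 in WT. Its dimmer probe sets 1422966_a_at and 1422967_a_at went the other way, by 0.075 and 0.11.

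Of 20 probe sets for erythroid transcription factors and the erythropoietin receptor, 1 was called higher (1.59% of all probe sets) and 0 lower (1.2% of all), with a median of 0.09. At an unadjusted p under 0.05 were 7 of the 20 (20.5% of all). The 1 called was Bcl11a, a repressor of embryonic globin genes that also acts in B cells and plasmacytoid dendritic cells. It read 7.34 ± 0.43 (KO) and 5.77 ± 0.24 (WT; SD, n = 4 arrays per genotype), and rose by 1.57 (limma, BH adjusted p = 0.0142). The call was lost without both WT arrays numbered 2 (difference 1.38; limma, BH adjusted p = 0.117). The other Bcl11a probe set differed by 0.19. Klf1, the factor that activates adult β globin, read 6.22 and 6.35 in KO TCDD and 6.17 and 7.30 in KO DMSO, against 6.66 and 6.28 in WT TCDD and 6.40 and 6.16 in WT DMSO. Its high reading was on KO DMSO replicate 2, the array with the highest haemoglobin. Gata1, the master regulator of red cell genes, read 6.92 ± 0.06 (KO) and 6.82 ± 0.05 (WT; SD, n = 4 arrays per genotype).

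The reticulocyte and red cell content list had 0 of 25 probe sets called by limma (2.79% of all probe sets). It had 6 at an unadjusted p under 0.05 (20.5% of all) and a median of 0.03. Car1, the red cell carbonic anhydrase, had means of 6.09 ± 0.14 over KO and 5.83 ± 0.13 over WT arrays (SD, n = 4 each). The difference of 0.26 did not pass (limma, BH adjusted p = 0.182). Without both WT arrays numbered 2 it was 0.21 (limma, BH adjusted p = 0.503). Car2, a second carbonic anhydrase, differed by 0.05. On KO DMSO replicate 2, 38 of the 100 red cell probe sets had their highest KO reading, against 29.6% of all probe sets. The widest leads there were 0.96 for Zfpm1, the cofactor of Gata1, 0.95 for Klf1 and 0.64 for a dim probe set of Slc4a1, picked after their values were seen.

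The list of haemoglobin and haem clearance, which also holds regulators and macrophage genes, gave 3 calls among 17 probe sets. Of these, 2 were higher and 1 lower (1.59% and 1.2% of all probe sets). At an unadjusted p under 0.05 were 6 of the 17 (20.5% of all). Fcna, a ficolin made by macrophages of the spleen, read 7.52 ± 0.27 (KO) and 6.47 ± 0.09 (WT; SD, n = 4 arrays per genotype), and rose by 1.05 (limma, BH adjusted p = 0.0109). Hmox2, the constitutive haem oxygenase, rose by 0.44 (limma, BH adjusted p = 0.0262). Bach1, a repressor that haem itself switches off, had 1 of its 2 probe sets called. That one read 6.71 and 7.40 in KO TCDD and 7.23 and 6.76 in KO DMSO, against 7.79 and 8.36 in WT TCDD and 7.92 and 8.58 in WT DMSO. Every KO array was below every WT array, and it fell by 1.14 on the log2 scale (SE 0.22; limma, BH adjusted p = 0.0381). The other Bach1 probe set differed by 0.03.

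These calls depended on the arrays used. Fcna did not pass without both WT arrays numbered 2 (difference 1.12; limma, BH adjusted p = 0.0856). Neither did Hmox2 (0.45; limma, BH adjusted p = 0.13) or Bach1 (−0.83; limma, BH adjusted p = 0.178). For Hmox2 and Bach1, leaving out 1 array was enough: the limma, BH adjusted p was 0.0865 and 0.107 without KO TCDD replicate 1, 0.0922 and 0.0694 without KO TCDD replicate 2, and 0.0748 and 0.0989 without WT TCDD replicate 2. It was 0.0535 and 0.0530 without WT DMSO replicate 1, 0.0545 and 0.0891 without WT DMSO replicate 2, and for Bach1 0.0735 without KO DMSO replicate 2. Hmox1, the haem oxygenase that haem induces, read 6.94 ± 0.24 in KO and 6.63 ± 0.12 in WT, and Hp, the plasma haemoglobin binder, 5.78 ± 0.18 (KO) and 5.81 ± 0.11 (WT; SD, n = 4 arrays per genotype). Of 5 probe sets for the other globins Mb, Cygb and Ngb, limma called 0 (2.79% of all), with 1 at an unadjusted p under 0.05 (20.5% of all).

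**Figure D3:**
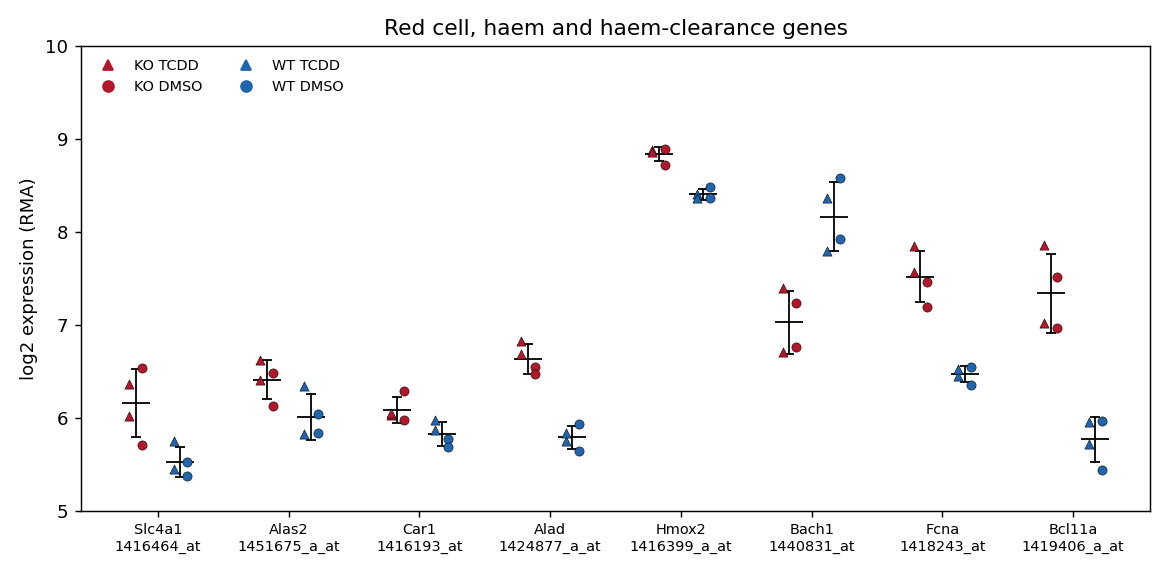
Log2 expression (RMA) of 8 genes from the red cell, haem and haem-clearance lists. Points are arrays (triangles TCDD, circles DMSO), bars are mean ± SD over 4 arrays, with KO left of WT. Alad, Hmox2, Fcna and Bcl11a lie higher and Bach1 lower in KO without overlap, whereas Slc4a1, Alas2 and Car1 overlap.

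Markers of other blood cells were set beside the haemoglobin difference. Of 11 platelet and megakaryocyte probe sets limma called 0 (2.79% of all probe sets), with 0 at an unadjusted p under 0.05 (20.5% of all). Pf4 and Ppbp, stored in platelets, differed by −0.08 and −0.15. The mean level of that list ran from 5.86 to 5.95 in KO and from 5.90 to 6.03 in WT. Of 11 neutrophil probe sets 0 were called (2.79% of all), with 1 at an unadjusted p under 0.05 (20.5% of all). S100a9 differed by 0.01. S100a8 read 6.54 ± 0.37 in KO and 7.19 ± 0.82 in WT, and Ngp 6.92 ± 0.12 (KO) and 6.99 ± 0.29 (WT; SD, n = 4 arrays per genotype). The neutrophil list's mean level ran from 6.33 to 6.50 in KO and from 6.22 to 6.57 in WT.

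Of 16 macrophage and dendritic cell probe sets, limma called 8 higher (1.59% of all probe sets) and 0 lower (1.2% of all). An unadjusted p under 0.05 was found for 11 of the 16 (20.5% of all). The mean level of the list ran from 7.04 to 7.51 over KO arrays and from 6.25 to 6.37 over WT arrays. Cd14, Lyz2, Itgam and Adgre1, other markers of macrophages and monocytes, overlapped between genotypes, with differences of −0.07, 0.13, 0.08 and 0.16. The widest differences were those of Irf8, a transcription factor of dendritic cells and monocytes (2.97), Tyrobp, a signalling adaptor of myeloid cells (2.49), and Cd68, a lysosomal protein of macrophages (1.87). C1qb, a complement subunit made by macrophages, rose by 1.85 and 1.74 in 2 of its 3 probe sets (limma, BH adjusted p = 0.00383 and 0.0277). The remaining one differed by 0.76. The call at 1.74 was lost without both WT arrays numbered 2 (1.62) and without any 1 array other than KO DMSO replicate 1 or WT TCDD replicate 1 (1.57 to 1.71). Without both WT arrays numbered 2, 3 of the 16 were called higher, against 0.0972% of all probe sets. Spic, the factor that defines red pulp macrophages, the cells that take up old red cells, read 4.69 ± 0.19 in KO and 4.60 ± 0.08 in WT and, in its other probe set, 3.91 ± 0.06 (KO) and 3.90 ± 0.07 (WT; SD, n = 4 arrays per genotype). Both probe sets of this gene were dim. The part of these cells in the haemoglobin difference was not tested.

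Of 12 B cell probe sets 1 was called higher (1.59% of all probe sets), Ly6d (by 1.59; limma, BH adjusted p = 0.00788), and Cd79a read 5.59 ± 0.20 (KO) and 5.67 ± 0.05 (WT; SD, n = 4 arrays per genotype). The B cell list's mean level ran from 5.48 to 5.84 in KO and from 5.23 to 5.55 in WT. An unadjusted p under 0.05 was found for 2 of the 12 B cell and 2 of the 15 CD4 T cell identity probe sets (20.5% of all). Of 15 CD4 T cell identity probe sets 1 was called higher (1.59% of all probe sets), Cd6 (by 0.82; limma, BH adjusted p = 0.0445), and the list's mean level ran from 8.13 to 8.26 in KO and from 7.99 to 8.29 in WT. Without both WT arrays numbered 2 neither gene passed (limma, BH adjusted p = 0.0745 and 0.211), and Cd6 also failed without any 1 array other than WT DMSO replicate 1. Each array holds RNA of a pool of cells, so more cells that carry a transcript and more of that transcript per cell cannot be told apart.

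**Figure D4:**
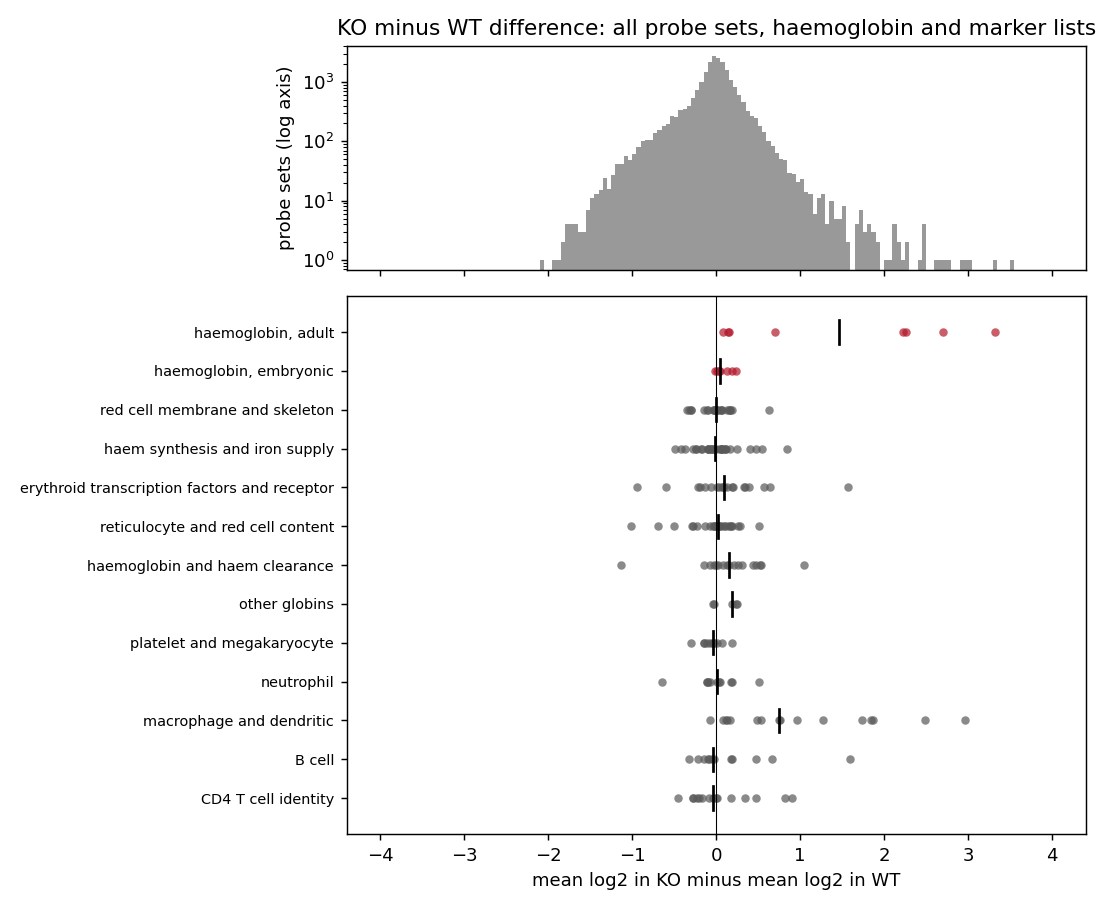
Top, the KO minus WT difference in mean log2 level of all 22626 tested probe sets, as counts on a log axis. Below, the same difference for each haemoglobin probe set (red) and each probe set of 11 marker lists (grey), with the median as a black bar. The adult haemoglobin probe sets reach 3.33, while the 4 red cell lists have medians between −0.02 and 0.09 and the macrophage and dendritic list has a median of 0.75.

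The genes whose pattern over the 8 arrays was most like the haemoglobin profile were found among 10319 single-gene probe sets brighter than the median. Pearson's r was used as the measure, as a description. Since KO and WT form separate clusters in the profile, a gene that separates the genotypes can have a large r for that reason alone. The 10 highest were Mpv17l (0.98), Slc66a2 (0.98), St3gal5 (0.98), Il12rb1 (0.97), Plk1 (0.97), Mapkbp1 (0.97), Wdr33 (0.97), Litaf (0.97), Grn (0.96) and Tmem131l (0.96). Of these, Grn, which encodes progranulin, had the widest KO minus WT difference, 2.16, and Mpv17l, with the highest r, had one of 0.20. The 5 lowest were Phip (−0.99), Gigyf2 (−0.99), Timm8a1 (−0.99), Ltn1 (−0.98) and Trp53inp1 (−0.98), with differences between −1.31 and −0.44. Of the red cell genes, r was 0.90 for Alad, 0.90 for Slc4a1, 0.87 for Alas2 and 0.87 for Car1. Slc4a1 and Car1 were too dim to be among the 10319. These 4 genes were picked from the lists, each by its brightest probe set, and all were higher in KO. Of the 100 red cell probe sets, 53 had a positive KO minus WT difference (48.5% of all probe sets). All KO arrays lay above all WT arrays for 8 (5.67% of all) and below them for 5 (6.67% of all). In all, 177 of the 10319 had r over 0.9 and 435 had r under −0.9.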

How the data were processed

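Values were the deposited log2 expression values of MOE430A arrays, made by the authors with RMA and affy, as the submitters' processing notes name them, without versions. RMA summarises the probes of a set on a log2 scale, and differences of dim probe sets can be understated. Precision is limited by the number of arrays.

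Of 22690 probe sets, 64 controls were left out. Gene symbols came from the platform annotation: 20380 tested probe sets had 1 symbol, 691 several and 1555 none. KO was fitted against WT over all 8 arrays, with treatments pooled as the series' design text states, and TCDD against DMSO in a model of 4 group means, with limma 3.58.1 in R 4.3.3 and BH adjustment over all tested probe sets. The fits were tested on simulated data. At most 2.85% of values were identical in any pair of arrays, so none was a duplicate. Both arrays of a group are biological duplicates per the labels.

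Named were all haemoglobin probe sets, list members called in KO against WT, a set of marker genes and the genes most and least like the haemoglobin profile. Members and lists were chosen with earlier results of these data known. Alternatives were normalisation, centring, a filter on dim probe sets, model settings, array subsets and other ways to form the profile. Promoter windows came from RefSeq.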

Additional observations from a re-analysis of the deposited data

Results flagged for a closer look

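Groups of 4 arrays were checked for a single array far from the other 3, by the gap to its neighbour as a share of the group's range, in 146 groups of named probe sets. The check marked 7, and chance marks about 1 in 20. Klf1 in KO had a share of 0.841, with KO DMSO replicate 2 at 7.30 and the other KO arrays at 6.17 to 6.35. Cd3e in KO had 0.914, with KO DMSO replicate 1 at 9.11 and the others at 9.43 to 9.46. C1qb in WT had 0.894, with WT TCDD replicate 1 at 6.38 and the others at 5.91 to 5.96. In another C1qb probe set it was 0.862, with WT TCDD replicate 2 at 4.89 and the others at 4.60 to 4.64. St3gal5 in WT had 0.88, with WT TCDD replicate 1 at 6.88 and the others at 6.63 to 6.66. Phip in WT had 0.895, with WT TCDD replicate 1 at 7.33 and the others at 7.84 to 7.90. Spic in WT had 0.857, with WT DMSO replicate 2 at 4.00 and the others at 3.86 to 3.88. No haemoglobin probe set was marked in this check.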

How the results depend on the processing

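The KO minus WT difference of the haemoglobin profile stayed positive in each of 17 alternatives. It moved by more than the spread between arrays when formed as the median over members (2.96), from members with 1 symbol alone (0.15, the flat 1427865_at) or from all 15 probe sets (0.82), was 1.77 without both WT arrays numbered 2, and ran from 1.98 to 2.34 with single arrays left out. The count of haemoglobin probe sets called higher by limma was 5, and 4 to 5 with single arrays left out (4 without KO TCDD replicate 1, KO TCDD replicate 2 or WT DMSO replicate 2). It was 3 with dim probe sets left out, since 4 of the 15 pass that filter, and 0 with TCDD arrays alone, with DMSO arrays alone (5 at an unadjusted p under 0.05 each) and without both WT arrays numbered 2. That last alternative was chosen after the data were seen for this count.

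Over all probe sets, the KO against WT count of 631 became 985 after quantile normalization again, 199 with treatment as a covariate, 0 with TCDD arrays alone (2832 at an unadjusted p under 0.05), 0 with DMSO arrays alone (1545) and 28 without both WT arrays numbered 2. With single arrays left out it ran from 109 to 667. The TCDD counts and their difference were 0 in each of 13 alternatives (limma).

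Hmox2 also lost its call with eBayes trend and robust settings (adjusted p = 0.0891, limma) and with treatment as a covariate (0.0526), and Bach1 with the covariate (0.0665).

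Replicate numbers did not pair the arrays over all groups: the correlation of replicate differences between groups ran from −0.29 (KO DMSO with WT DMSO) to 0.63 (WT TCDD with WT DMSO), so the numbers went together within WT. With a replicate block the KO against WT count was 801, haemoglobin probe sets called stayed at 5, the profile difference was 2.10, and 4 of the 100 red cell probe sets were called instead of 2.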
